A study of Mus musculus with 6 samples.

Results

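The collagen genes of the mouse were taken as every gene whose symbol is Col, a number, a and a number, named through the RefSeq accession printed for each probe of the array. The reference lists 44 such genes, 43 of them had a probe among the 20659 genes on the array, and 39 were measured, as part of 28553 measured features. Measured means that a probe of the gene passed the scanner software's test for signal well above background on each of the 3 arrays in at least 1 group. The 4 collagen genes with a probe that no group measured were Col9a3, Col13a1, Col19a1 and Col28a1, and Col12a1 had no probe that could be paired with it.

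C2C12 is an established line of mouse myoblasts that fuses into muscle fibres when serum is withdrawn. The si-SYISL group (3 arrays) was transfected with a small interfering RNA against the long noncoding RNA SYISL, and the si-NC group (3 arrays) with a control siRNA. Both groups were grown in medium with 10% fetal bovine serum, transfected, and moved to 2% horse serum for 2 days of differentiation. Each sample gave 1 µg of total RNA, which was amplified, labelled with Cy3 and hybridised to a single-colour Agilent array. The labels do not say whether arrays of a group came from separate cultures, all of them come from 1 cell line, and no probe was named as SYISL by the reference used, which leaves the knockdown unchecked here.

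In each group, arrays 1 and 3 agreed more closely than repeated spots within an array do. They were averaged and counted as 1 sample, which leaves 2 samples in each group and p-values that measure only the spread between these samples. Replicates 1 and 2 of both groups were read in 1 scan and replicate 3 of both in another. Between 87.9% and 90.6% of spots were well above background on si-SYISL arrays, against 78.2% to 84.6% on si-NC arrays, and no spot was saturated. All 12 muscle markers listed, Myod1 and Des among them, were above background on all 6 arrays.

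Collagens are secreted proteins whose alpha chains assemble in fixed combinations into rope-like trimers, each chain encoded by its own gene. Fibrillar collagens form the load-bearing fibres of connective tissue, type IV collagen forms the sheet of the basement membrane that wraps every muscle fibre, and type VI collagen forms beaded filaments between both. In muscle the chains come from connective tissue cells and, in part, from the myogenic cells themselves, and human mutations in type VI chains cause muscular dystrophies.

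The chains of type IV collagen are encoded by genes that lie head to head in pairs. For Col4a5 with Col4a6 and Col4a1 with Col4a2 the neighbours gave opposite or unequal differences, described below, and their start regions are shown, from RefSeq on build GRCm38.p6, 5′ to 3′ on the strand given, with GC boxes (GGGCGG, searched on both strands) and CCAAT boxes in capitals. Col4a5 and Col4a6 start 1343 bases apart on chromosome X and the 250 bases before each start are given. Col4a1 and Col4a2 start 21 bases apart on chromosome 8, so the stretch from one start to the other is given. Each gene runs across the start of the other, so this stretch lies inside both genes and not before either start.
Col4a5, chrX:141475169-141475418 (+): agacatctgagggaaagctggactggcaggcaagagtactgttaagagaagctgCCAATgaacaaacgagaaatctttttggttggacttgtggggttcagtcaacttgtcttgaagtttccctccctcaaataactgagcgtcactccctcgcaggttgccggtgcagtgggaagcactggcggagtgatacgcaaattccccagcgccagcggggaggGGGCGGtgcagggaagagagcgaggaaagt
Col4a6, chrX:141474077-141474326 (-): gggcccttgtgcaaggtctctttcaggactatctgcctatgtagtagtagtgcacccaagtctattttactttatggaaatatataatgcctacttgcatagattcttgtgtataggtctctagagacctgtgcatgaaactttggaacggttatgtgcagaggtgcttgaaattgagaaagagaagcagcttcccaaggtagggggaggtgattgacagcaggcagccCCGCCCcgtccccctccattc
Col4a2 to Col4a1, chr8:11312805-11312826 (+): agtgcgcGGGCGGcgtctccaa
The Col4a5 window holds 1 GC box and 1 CCAAT box, and the Col4a6 window 1 GC box and no CCAAT box. The 22 bases shared by the starts of Col4a1 and Col4a2 hold 1 GC box. Across the 35 collagen genes with a sequence in the promoter table, 21 (60.0%) had a GC box within 250 bases before the start, against 32.9% of 27025 promoters. A CCAAT box was present in 12 (34.3%) collagen promoters, against 34.5% of all promoters, and the letters TATAAA in 5 (14.3%), against 13.0%. These matches describe letters in a window and not sites in use.

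Values per array are log2 intensities relative to the array's own 75th percentile, and they can be compared between groups for 1 probe but not between probes. The difference of a gene is si-SYISL minus si-NC on that scale, less the median difference of all features, which was 0.16, and it is given with its standard error (SE). The adjusted p is from limma with Benjamini-Hochberg adjustment over all features and tests the difference before that median is taken off.

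No collagen gene passed the adjusted threshold of 0.05, and neither did any of the 28553 features (0% called), the smallest adjusted p being 0.0842 over all features and 0.123 among collagen genes. At an unadjusted p under 0.05, 8 of 39 collagen genes were higher and 2 lower in si-SYISL cells, where 16.8% of all features were higher and 5.86% lower. Counts with other settings ran from 0 to 10 of 39 collagen genes called and from 0 to 9762 features (34.2%). The upper figures came from treating the 6 arrays as 6 samples. The 39 genes had a median difference of 0.01, against 0 for all features, and ranged from -0.89 to 0.74. Differences beyond 0.5 in either direction were found in 3 of 39 collagen genes (7.69%), Col4a5, Col17a1 and Col6a5, against 18.1% of all features.

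For 20 of 39 collagen genes (51.3%) the si-SYISL samples were both higher than either si-NC sample, where 46.3% of all features did so. Both were lower for 3 of 39 (7.69%), Col4a5, Col17a1 and Col24a1, where 15.8% of all features did so. The other 16 overlapped. This split was counted before the median difference was taken off, and it became 13 above and 4 below when arrays were centred on the median, with 33.9% and 21.3% of all features, and 14 above and 7 below after quantile normalisation, with 30.3% and 24.1%. The collagen median of each sample, relative to all features and to the si-NC mean, was 0.01 and 0.06 in si-SYISL samples, against 0.02 and -0.02 in si-NC samples (pooled SD 0.03).

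**Figure D1:**
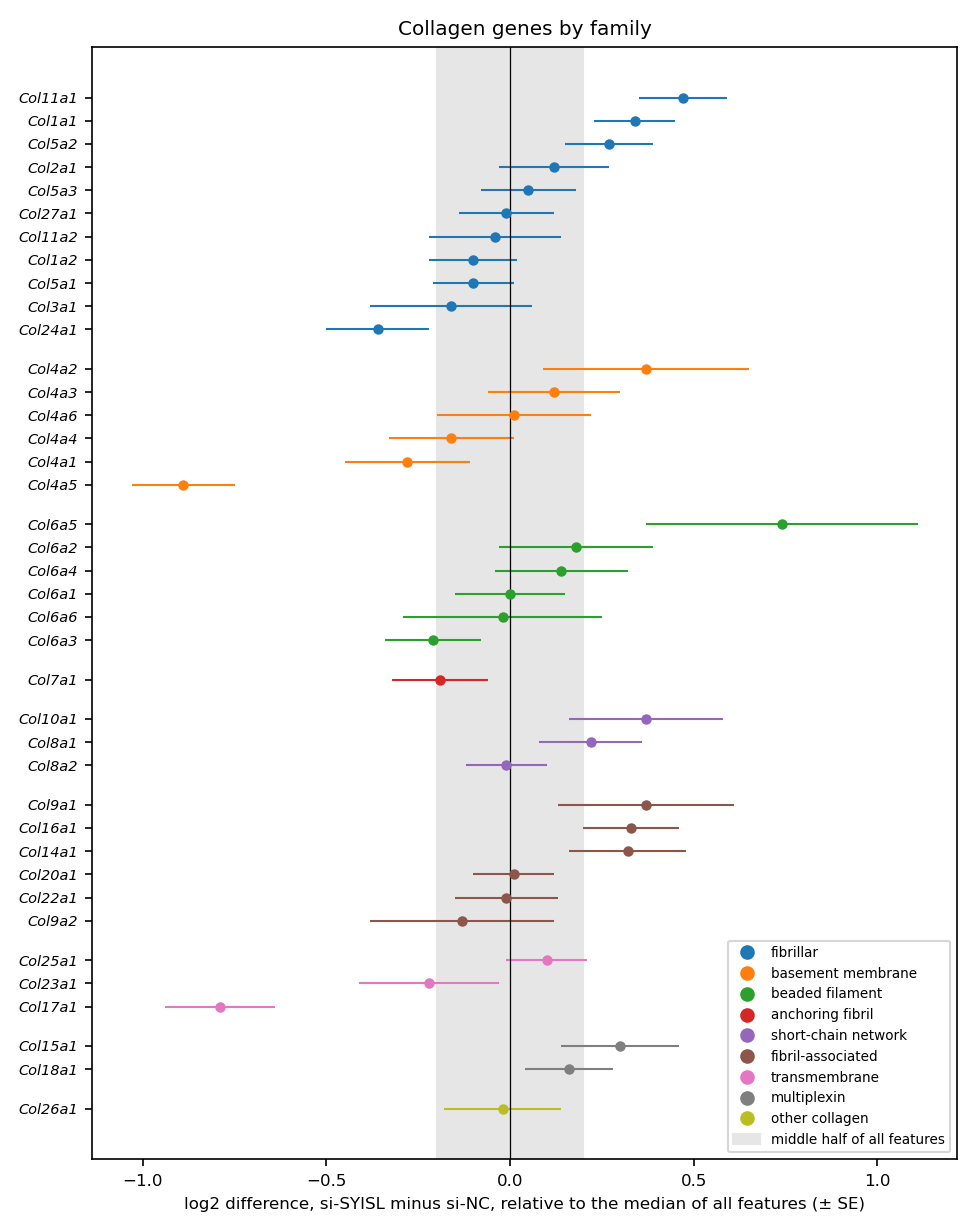
Log2 difference, si-SYISL minus si-NC, relative to the median of all features, for the 39 measured collagen genes grouped by family. Points are differences, bars are ± 1 SE from the limma fit (2 samples per group), and the grey band is the interquartile range of all features, -0.20 to 0.20. Col4a5 at -0.89 and Col17a1 at -0.79 lie farthest to the left and Col6a5 at 0.74 farthest to the right.

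Among the 11 fibrillar chains the median difference was -0.01. Before the median of all features was taken off, 6 (54.5%, against 46.3% of all features) were above and 1 (9.09%, against 15.8%) below in every sample. Such counts for the other families are on the same scale. Col1a1 and Col1a2 encode the chains of type I collagen, the main fibre of skin, bone, tendon and muscle connective tissue. Col1a1 read 5.40, 5.48 and 5.46 on si-SYISL arrays 1 to 3, against 4.93, 4.93 and 5.0 on si-NC arrays. All 3 si-SYISL arrays were above all si-NC arrays, and the difference was 0.34 ± 0.11 (SE, 1.27-fold, adjusted p = 0.135). Col1a2 read 5.87, 6.02 and 5.90 on si-SYISL arrays, against 5.92, 5.86 and 5.92 on si-NC arrays. These values overlapped, with a difference of -0.10 ± 0.12 (adjusted p = 0.729) that was 0.06 with normexp background correction.

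Col3a1, the chain of type III collagen, which accompanies type I in soft tissues, read 6.13, 6.38 and 6.17 on si-SYISL arrays, against 6.54, 6.0 and 6.52 on si-NC arrays. The si-NC arrays themselves spanned a wider range than the gap between the group means, and the difference was -0.16 ± 0.22 (adjusted p = 0.994). Leaving out the sample made of si-NC replicates 1 and 3 gave 0.10.

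Type V collagen sits inside type I fibres and starts their assembly. Its Col5a1 chain read 3.83, 3.89 and 3.82 on si-SYISL arrays, against 3.81, 3.79 and 3.80 on si-NC arrays. The si-SYISL arrays were all slightly higher, by less than the shift of the median feature, so that the difference was -0.10 ± 0.11 (adjusted p = 0.733), and 0.02 with normexp. The partner chain Col5a2 read 1.56, 1.55 and 1.59 on si-SYISL arrays, against 1.18, 1.06 and 1.22 on si-NC arrays. The groups were well apart, with a difference of 0.27 ± 0.12 (1.21-fold, adjusted p = 0.162).

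Col11a1, a chain of type XI collagen that nucleates cartilage fibres, had the smallest p of all collagen genes. It read -4.63, -4.50 and -4.57 on si-SYISL arrays, against -5.18, -5.14 and -5.27 on si-NC arrays, a dim probe that was above background on all 6. The arrays of the groups did not overlap, and the difference was 0.47 ± 0.12 (1.39-fold, adjusted p = 0.123). The other fibrillar chains were Col2a1 at 0.12, Col5a3 at 0.05, Col27a1 at -0.01, Col11a2 at -0.04 and Col24a1, a minor fibrillar chain of developing bone, at -0.36 ± 0.14. Col24a1 was the 1 fibrillar gene with both si-SYISL samples below both si-NC samples, but its adjusted p was 0.401.

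**Figure D2:**
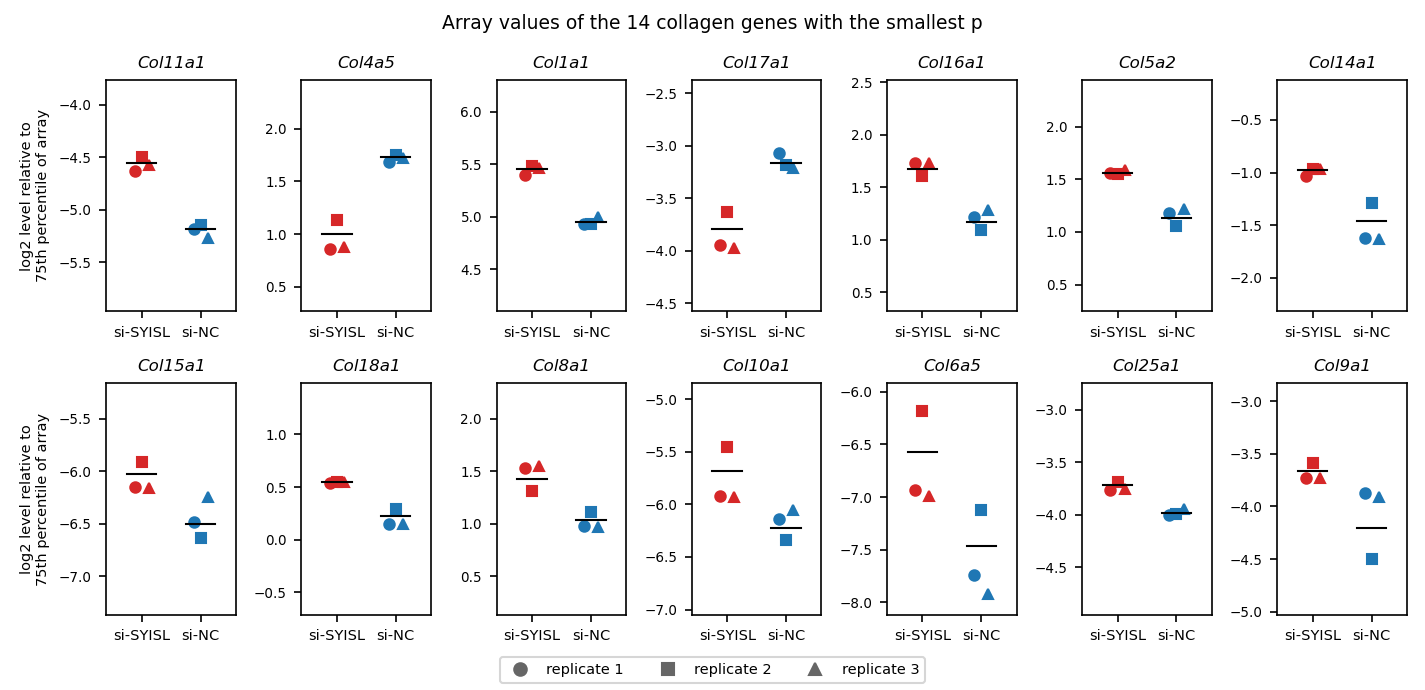
Log2 level relative to the array's 75th percentile for the 14 collagen genes with the smallest p, one panel per gene, each with an axis of the same length. Circles, squares and triangles are replicates 1, 2 and 3, and horizontal lines are group means over 2 samples, the average of replicates 1 and 3 being one of them. In Col4a5 and Col17a1 the si-SYISL arrays lie below the si-NC arrays, and in the other 12 genes both si-SYISL samples lie above both si-NC samples.

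The 6 type IV chains of the basement membrane had a median of -0.07. Of these, 1 was above (16.7%, against 46.3% of all features), 1 below (16.7%, against 15.8%) and 4 overlapped. Col4a5, an X-linked chain that is mutated in human Alport syndrome, showed the most negative difference of all collagen genes. Its levels were 0.86, 1.13 and 0.88 on si-SYISL arrays, against 1.69, 1.75 and 1.72 on si-NC arrays. No si-SYISL array came near the si-NC arrays, and the difference was -0.89 ± 0.14 (0.539-fold, adjusted p = 0.127). Over the alternative settings the Col4a5 difference stayed between -0.97 and -0.76, with adjusted p from 0.00373 to 0.289.

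Col4a1 and Col4a2 encode the chains found in nearly every basement membrane. Col4a1 read 2.05, 1.65 and 2.06 on si-SYISL arrays, against 2.0, 1.95 and 2.0 on si-NC arrays. The si-SYISL replicates disagreed by more than the groups did (-0.28 ± 0.17, adjusted p = 0.666), and the difference was -0.04 without replicate 2 and -0.52 without replicates 1 and 3 of si-SYISL. Col4a2 read 0.94, 0.33 and 0.95 on si-SYISL arrays, against 0.33, -0.11 and 0.32 on si-NC arrays. Replicate 2 was the lowest array in both groups, si-SYISL replicate 2 equalled the highest si-NC array, and the difference was 0.37 ± 0.28 (adjusted p = 0.304). It was 0.03 without si-SYISL replicates 1 and 3, 0.73 without si-SYISL replicate 2, 0.17 without si-NC replicate 2 and 0.58 without si-NC replicates 1 and 3. The remaining chains were Col4a3 at 0.12, Col4a4 at -0.16 and Col4a6 at 0.01.

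Type VI collagen forms the beaded filaments around muscle fibres, and its 6 genes had a median of 0.07. Of these, 3 were above (50%, against 46.3% of all features) and none below (against 15.8%). Col6a1 read 5.95, 6.01 and 5.96 on si-SYISL arrays, against 5.99, 5.66 and 5.97 on si-NC arrays, a difference of 0.00 ± 0.15 (adjusted p = 0.514). Col6a2 read 2.30, 1.76 and 2.30 on si-SYISL arrays, against 1.71, 1.67 and 1.69 on si-NC arrays. Its difference of 0.18 ± 0.21 (adjusted p = 0.353) came from si-SYISL replicates 1 and 3, and it was -0.12 without that sample and 0.50 without si-SYISL replicate 2. Col6a3, the largest chain, read 3.27, 3.42 and 3.25 on si-SYISL arrays, against 3.48, 3.31 and 3.48 on si-NC arrays. These overlapped, with a difference of -0.21 ± 0.13 (adjusted p = 0.819).

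Col6a4, Col6a5 and Col6a6 encode later-described chains that can take the place of Col6a3. Col6a5 was well above background on all 3 si-SYISL arrays and on none of the si-NC arrays. Its levels were -6.93, -6.18 and -6.99 on si-SYISL arrays, against -7.74, -7.12 and -7.92 on si-NC arrays. The measured difference was 0.74 ± 0.37 (adjusted p = 0.244). A bound was set by taking the si-NC arrays as no less than the dimmest detected probe. It was at least 1.22-fold higher, before the median of all features was taken off. On that scale the dimmest bin of features by level, described below, had a median log2 difference of 0.36, and Col6a5 lies in that bin. The Col6a5 difference was 0.10 with normexp, 0.38 with quantile normalisation, 0.38 without si-NC replicates 1 and 3, 0.40 without si-SYISL replicate 2, 1.12 without si-NC replicate 2 and 1.1 without si-SYISL replicates 1 and 3. Col6a6 showed the same pattern of detection, with -7.18, -6.89 and -7.44 on si-SYISL arrays, against -6.88, -7.55 and -7.02 on si-NC arrays. Here the levels overlapped (-0.02 ± 0.27, adjusted p = 0.741), and no bound on a fold could be set. Col6a4 differed by 0.14.

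The short-chain collagens, which form hexagonal lattices, had a median of 0.22. Before the median of all features was taken off, 3 of 3 genes were above in all samples, where 46.3% of all features were. Col8a2 is among these 3 although its difference was -0.01. Col8a1, found around vessels and in the cornea, read 1.53, 1.31 and 1.55 on si-SYISL arrays, against 0.98, 1.11 and 0.97 on si-NC arrays. The arrays were separate and the difference was 0.22 ± 0.14 (adjusted p = 0.213), or 0.08 without si-SYISL replicates 1 and 3 and 0.38 without replicate 2. Col10a1, a marker of hypertrophic cartilage, read -5.92, -5.45 and -5.93 on si-SYISL arrays, against -6.14, -6.34 and -6.05 on si-NC arrays (0.37 ± 0.21, adjusted p = 0.234). In replicate 3 alone, which is the second scan, its difference was 0.02, and it was 0.18 without si-SYISL replicate 2, 0.58 without si-SYISL replicates 1 and 3 and 0.13 with normexp. Col8a2 was at -0.01.

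Fibril-associated collagens decorate the surface of the large fibres, and 6 of 9 were measured, with a median of 0.16. Of these, 4 were above (66.7%, against 46.3% of all features) and none below (against 15.8%). Col16a1 read 1.73, 1.61 and 1.73 on si-SYISL arrays, against 1.22, 1.09 and 1.28 on si-NC arrays. All arrays were apart, the difference was 0.33 ± 0.13 (1.26-fold, adjusted p = 0.153), and its 3 probes gave 0.33 to 0.43. The probe at 0.41 was above background on 3 si-SYISL arrays but on only 1 si-NC array. It was thus kept through the group where it is high. Col14a1, which regulates fibre diameter, read -1.03, -0.97 and -0.97 on si-SYISL arrays, against -1.62, -1.29 and -1.63 on si-NC arrays. The si-SYISL arrays were tightly grouped above the others (0.32 ± 0.16, adjusted p = 0.193), and its second probe gave 0.53. Without si-NC replicates 1 and 3 it was 0.14, and without si-NC replicate 2 it was 0.51.

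Col9a1, which coats type II fibres in cartilage, read -3.73, -3.59 and -3.73 on si-SYISL arrays, against -3.87, -4.50 and -3.91 on si-NC arrays. Replicate 2 of si-NC stood well below the others, and the difference of 0.37 ± 0.24 (adjusted p = 0.260) was 0.09 without it, 0.67 without si-NC replicates 1 and 3, and 0.08 in replicate 3 alone. Col9a2 differed by -0.13, Col20a1 by 0.01 and Col22a1, which sits at the junction of muscle and tendon, by -0.01.

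Transmembrane collagens stay anchored in the cell surface, and 3 of 4 were measured. Col17a1, the hemidesmosome collagen of skin, was the second most negative collagen gene. Its levels were -3.94, -3.63 and -3.97 on si-SYISL arrays, against -3.07, -3.18 and -3.21 on si-NC arrays. All si-SYISL arrays were below all si-NC arrays, with a difference of -0.79 ± 0.15 (0.577-fold, adjusted p = 0.15). Col25a1, which in mice is needed for motor axons to enter muscle, read -3.76, -3.69 and -3.75 on si-SYISL arrays, against -4.0, -3.99 and -3.94 on si-NC arrays. The arrays were apart by little more than the median shift (0.10 ± 0.11, adjusted p = 0.247). Col23a1 was at -0.22.

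The multiplexins Col15a1 and Col18a1 are basement membrane zone collagens, and Col18a1 is the source of endostatin. Col15a1 read -6.15, -5.91 and -6.16 on si-SYISL arrays, against -6.48, -6.63 and -6.24 on si-NC arrays, near the dim end of the array (0.30 ± 0.16, adjusted p = 0.205). Its difference was -0.01 in replicate 3 alone, 0.09 after quantile normalisation or normexp, and 0.19 without si-NC replicate 2. The other probes of Col15a1 were too dim to count as measured and went the other way, at -0.67 and -0.39. Col18a1 read 0.54, 0.55 and 0.55 on si-SYISL arrays, against 0.15, 0.29 and 0.15 on si-NC arrays. Here the groups were separate and the difference was 0.16 ± 0.12 (adjusted p = 0.211), or 0.30 after quantile normalisation, 0.08 without si-NC replicates 1 and 3 and 0.26 without si-NC replicate 2. Col7a1, which builds the anchoring fibrils of skin, was at -0.19 and Col26a1 at -0.02.

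Replicates 1 and 3 stand for 1 sample, so the scan of replicates 1 and 2, which holds both samples of each group, was bound to give nearly the pooled values (the farthest by 0.06). In the scan of replicate 3, with 1 array per group and no test, 22 of 39 were within 0.15 and 5 had the opposite sign. The values there for Col4a5, Col17a1, Col1a1 and Col11a1 were -0.93, -0.86, 0.36 and 0.61. Col3a1 was at -0.45 and Col6a2 at 0.51 in that scan.

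Chains that assemble into 1 trimer were compared as the log2 ratio of partner genes within each sample. The ratio carries the brightness of both probes, so that only its difference between groups can be read. In 11 of 15 pairs of partners the si-SYISL samples were apart from the si-NC samples, and in 5 pairs the difference was beyond 0.5. The share of such ratios over all features was not computed. Of single features, 46.3% had both si-SYISL samples higher and 15.8% both lower. Several pairs share a gene, such as Col4a5, so the pairs are not independent. With 2 samples against 2, a two-sided exact permutation test over 6 splits cannot go below 0.333, which is the p of those 11 pairs (0.455 after Benjamini-Hochberg adjustment over the 15), so none of these ratios passes a test.

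Among the type IV chains the ratios differed by 0.27 to 1.01 in size. Col4a5 over Col4a6 was -1.39 and -1.49 in si-SYISL samples, against -0.76 and -0.32 in si-NC samples, a difference of -0.90 (0.535-fold) between these genes on X. Col4a1 over Col4a2 was 1.11 and 1.33 in si-SYISL samples, against 1.68 and 2.06 in si-NC samples, a difference of -0.65 (0.636-fold). Both ratios were lower in the si-SYISL samples. Col4a3 over Col4a4, the head-to-head pair on chromosome 1, went the other way and less far with the Col4a4 probe used. It was -1.35 and -1.42 in si-SYISL samples, against -1.79 and -1.52 in si-NC samples (0.27). The other measured Col4a4 probe differed by 0.68, where the one used differed by -0.16 and Col4a3 by 0.12. With that probe the ratio would be lower in si-SYISL cells. Col4a3 over Col4a5 and Col4a4 over Col4a5, the partners of the kidney trimer, differed by 1.01 and 0.74, both of which carry the Col4a5 value.

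Col1a1 over Col1a2 was -0.46 and -0.54 in si-SYISL samples, against -0.95 and -0.94 in si-NC samples, a difference of 0.44 (1.36-fold). Type I collagen is assembled mostly from both chains together. Col5a1 over Col5a2 differed by -0.37, Col11a1 over Col11a2 by 0.51, Col6a1 over Col6a3 by 0.21 and Col8a1 over Col8a2 by 0.23, all with groups apart. Samples overlapped for Col6a1 over Col6a2 (-0.18), Col6a2 over Col6a3 (0.40), Col9a1 over Col9a2 (0.50) and Col5a1 over Col5a3 (-0.15).

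**Figure D3:**
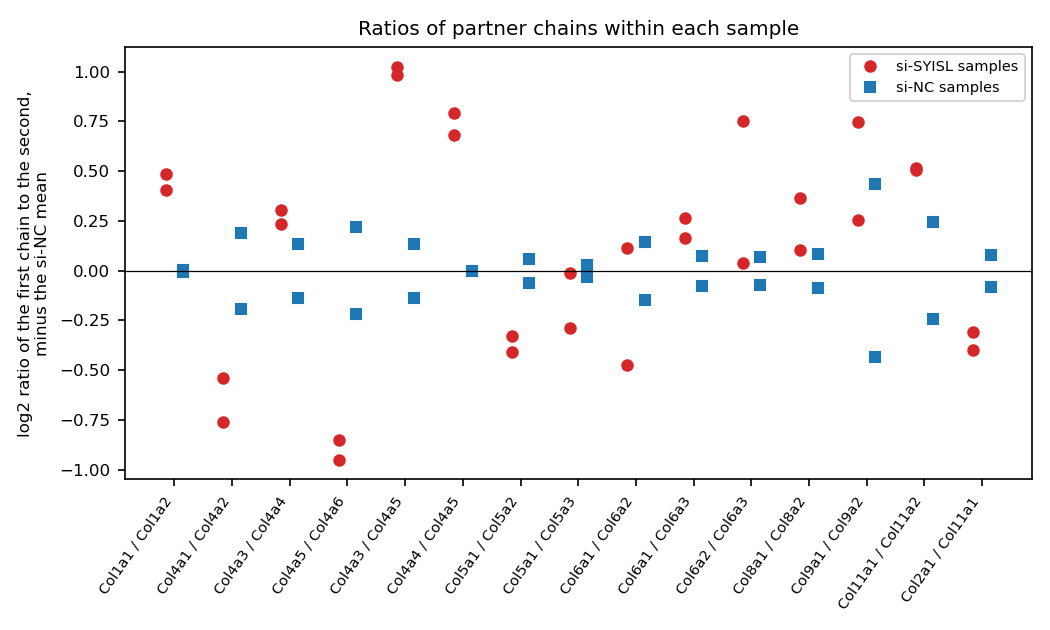
Log2 ratio of the first chain to the second in each sample, less the mean of the si-NC samples, for 15 pairs of partner chains. Red circles are the 2 si-SYISL samples and blue squares the 2 si-NC samples. Col4a5 over Col4a6 and Col4a1 over Col4a2 lie below 0 and Col1a1 over Col1a2 above 0 in both si-SYISL samples, with no overlap with si-NC.

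Different probes of a gene did not always give the same value. Of the 9 collagen genes with several measured probes, Col8a2 ran from -0.01 to 1.02, Col4a4 from -0.16 to 0.68, Col23a1 from -0.22 to 0.51 and Col25a1 from 0.10 to 0.53. For Col4a6 the probes gave -0.34 and 0.01, so the size of the Col4a5 to Col4a6 gap depends on the probe taken. With the other probe of Col4a4 the difference in Col4a3 over Col4a4 would change sign. The same holds for Col8a1 over Col8a2 with the other probe of Col8a2. The probes of Col16a1, Col9a1 and Col18a1 lay within 0.10 of each other. Among these, a probe of Col16a1 and a probe of Col9a1 were kept through the si-SYISL arrays alone. Col1a1, Col1a2, Col3a1, Col4a1, Col4a2 and Col4a5 had 1 probe each and no such check.

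The difference between groups also varied with brightness. Before the median was taken off, all features were divided by level into 4 bins of equal size. The median difference was 0.36 in the dimmest bin, and 0.17, 0.07 and 0.08 in the next bins. Relative to their own bin, 17 of 39 collagen genes were above and 22 below, with a median of -0.02. In the dimmest bin 3 of 10 collagen genes were above its median, and in the brightest 8 of 14. Against their own bin Col11a1 was at 0.46, Col1a1 at 0.43, Col16a1 at 0.42, Col4a5 at -0.81 and Col17a1 at -0.80, while Col15a1 was at 0.10 and Col10a1 at 0.17. The part of brightness in these differences was not tested.

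**Figure D4:**
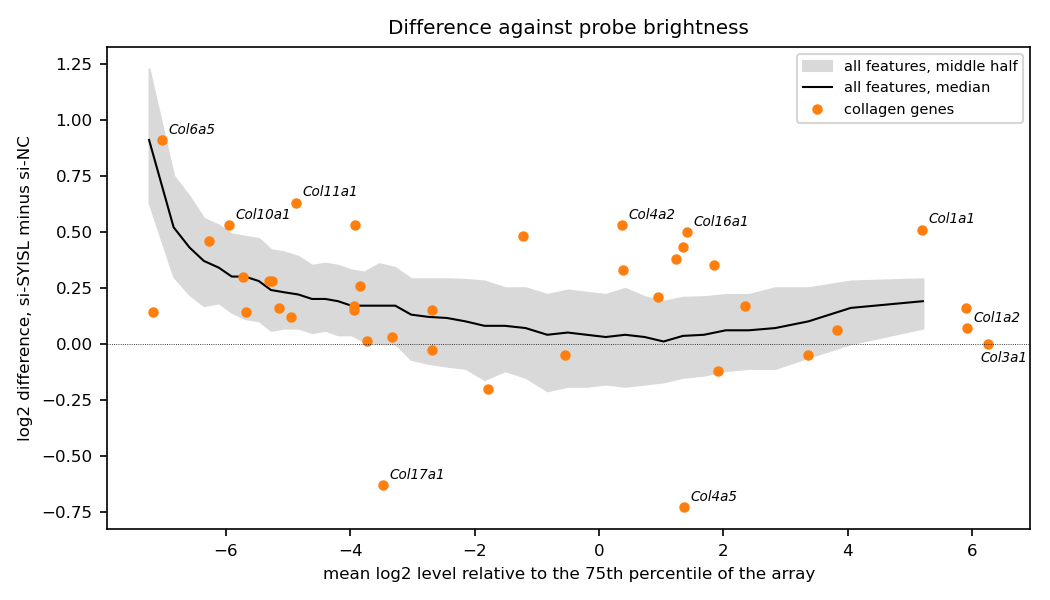
Log2 difference, si-SYISL minus si-NC, before the median is taken off, against the mean log2 level relative to the array's 75th percentile. The black line and grey band are the median and interquartile range of all 28553 features along the level axis, and orange points are the 39 collagen genes. Dim features lie above 0, while Col4a5 and Col17a1 lie far below the band and Col1a1 above it at the bright end.

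The 37 genes that modify, export, cleave and crosslink collagen were all measured, with none called, a median of -0.01, 20 above (54.1%, against 46.3% of all features) and 3 below (8.11%, against 15.8%). Loxl3, a lysyl oxidase that crosslinks collagen and elastin, read -0.14, -0.24 and -0.13 on si-SYISL arrays, against -1.02, -0.96 and -1.0 on si-NC arrays (0.63 ± 0.11, adjusted p = 0.106). Its relative Loxl2 read -2.92, -2.66 and -2.97 on si-SYISL arrays, against -2.05, -1.72 and -2.01 on si-NC arrays (-1.09 ± 0.18, adjusted p = 0.127). Pcolce2, an enhancer of procollagen cleavage, read 0.02, -0.01 and 0.03 on si-SYISL arrays, against 0.80, 1.04 and 0.83 on si-NC arrays (-1.08 ± 0.13, adjusted p = 0.107). In each of these the groups were far apart, in opposite directions for the crosslinking relatives.

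P4ha1, a catalytic subunit of the prolyl 4-hydroxylase that stabilises the collagen helix, read 1.04, 0.76 and 1.07 on si-SYISL arrays, against 0.15, 0.37 and 0.16 on si-NC arrays (0.48 ± 0.16, adjusted p = 0.155). The other catalytic subunits, named after their values were seen, were P4ha2 at 0.39 and P4ha3 at 0.71, both with groups apart. The collagen chaperone Serpinh1 was at -0.12, the crosslinker Lox at -0.01 and the collagen-binding glycoprotein Sparc at -0.06. The sign of Lox turned in 5 of 17 alternative settings (quantile normalisation, the deposited matrix, detection on all 6 arrays, and without replicates 1 and 3 of either group). That of Sparc turned in 2, the mean of probes and without si-NC replicates 1 and 3.

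Of 13 receptors of collagen 10 were measured, none was called, and 2 (20%) were above and 5 (50%) below, where 46.3% and 15.8% of all features were, with a median of -0.33. Itga11, the integrin subunit that binds fibrillar collagen in connective tissue cells, was at the smallest adjusted p of the fit, a value it shares with other features. It read 0.50, 0.32 and 0.49 on si-SYISL arrays, against -0.93, -0.79 and -0.96 on si-NC arrays (1.11 ± 0.13, adjusted p = 0.0842). Itga1, which prefers basement membrane collagen, differed by 0.97 ± 0.18 (adjusted p = 0.114). Itgb1, the beta subunit that both pair with, read 1.96, 2.56 and 1.96 on si-SYISL arrays, against 3.35, 3.32 and 3.33 on si-NC arrays (-1.23 ± 0.23, adjusted p = 0.135). The alpha subunits were thus higher and the shared beta subunit lower in all si-SYISL arrays.

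The breakdown list had 17 of 19 genes measured, none called, 6 above (35.3%, against 46.3% of all features) and 4 below (23.5%, against 15.8%), with a median of -0.08. Mmp14, a membrane collagenase, read -0.66, -0.27 and -0.66 on si-SYISL arrays, against 1.17, 0.60 and 1.19 on si-NC arrays (-1.52 ± 0.26, adjusted p = 0.127). The gap was larger than for any collagen gene. Fap, a fibroblast protease, was at 0.49 ± 0.11 (adjusted p = 0.121), the inhibitor Timp4 at 0.98 ± 0.30 (adjusted p = 0.158) and the gelatinase Mmp2 at -0.08 ± 0.13 (adjusted p = 0.670), which was 0.02 without si-NC replicates 1 and 3.

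Matrix proteins that bind collagen numbered 31 measured of 33, none called, with a median of 0.04, 19 above (61.3%, against 46.3% of all features) and 0 below (against 15.8%). Those with the smallest p were Comp, which bridges collagen molecules in cartilage and tendon (0.92 ± 0.16, adjusted p = 0.111), Tgfbi (0.70 ± 0.15, adjusted p = 0.121) and the small proteoglycan Ogn (0.48 ± 0.12, adjusted p = 0.123). Comp was above background on 3 si-SYISL arrays but on only 1 si-NC array, so it was kept through the group where it is high, and its difference ran down to 0.29 over the alternative settings. Ogn was bright, with 6.04, 6.15 and 6.05 on si-SYISL arrays, against 5.48, 5.41 and 5.51 on si-NC arrays. Of 25 transcription factors known to act on collagen genes 24 were measured and none called, with a median of 0.01, 13 above (54.2%, against 46.3% of all features) and 4 below (16.7%, against 15.8%). Sox9, the activator of cartilage collagen genes, read -0.31, 0.04 and -0.32 on si-SYISL arrays, against 0.58, 0.83 and 0.56 on si-NC arrays (-1.0 ± 0.18, adjusted p = 0.136). The tendon factor Scx was at 0.29 ± 0.12 (adjusted p = 0.160) and the Smad corepressor Ski at 0.21 ± 0.11 (adjusted p = 0.175).

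**Figure D5:**
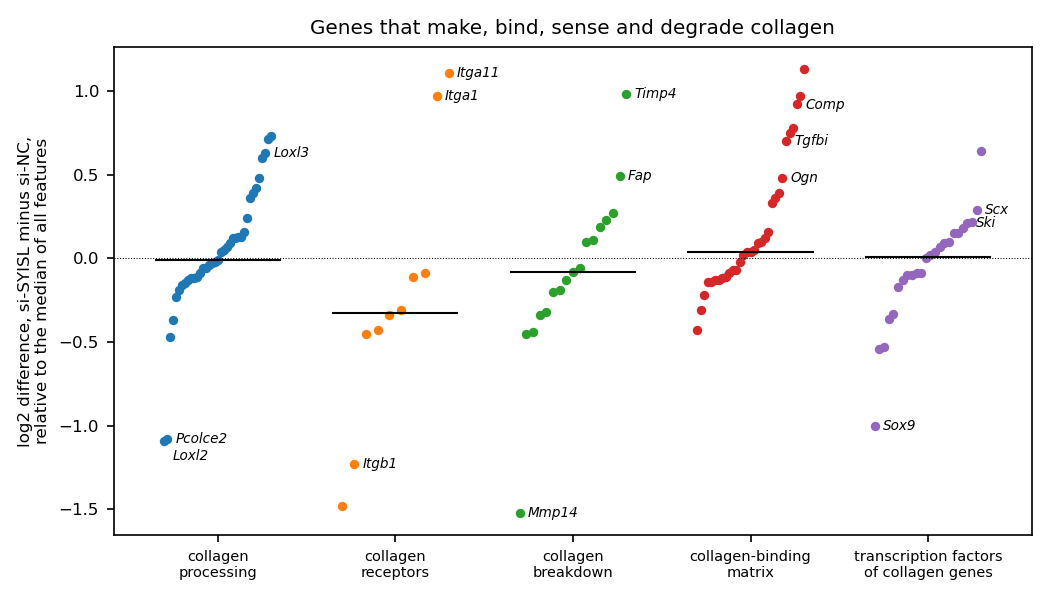
Log2 difference, si-SYISL minus si-NC, relative to the median of all features, for measured genes of 5 lists around collagen. Each point is a gene, the black line is the median of its list and the 3 genes with the smallest p in each list are named. The receptor list has Itga11 at 1.11 and Itgb1 at -1.23, and Mmp14 at -1.52 is the lowest point.

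Marker genes of cell types that make collagen were also read, and none was called. The levels of 9 fibroblast markers were summed as intensity over the array's 75th percentile. The sum was 37.5 to 40.8 in si-SYISL samples and 43.7 to 47.8 in si-NC samples. Such a sum weighs each probe by its brightness, so 1 bright probe can carry it. It is also made before the median difference of all features, 0.16, is taken off. Of these 9, Ly6a (-0.74) was the 1 marker with both si-SYISL samples below (11.1%, against 15.8% of all features). Another 3 were above (33.3%, against 46.3%) and 5 overlapped. For 5 tendon markers the sum was 11.5 to 12.4 in si-SYISL samples and 8.27 to 9.06 in si-NC samples. Most of it was Scx, at log2 levels of 3.48 to 3.60 on si-SYISL arrays and 3.02 to 3.16 on si-NC arrays. The other measured tendon markers were at -1.84 or lower. For the 8 chondrocyte and osteoblast markers on the array the sum was 1.1 to 1.3 in si-SYISL samples and 1.7 to 2.02 in si-NC samples. In the chondrocyte and osteoblast list Sox9 was the 1 measured marker below (14.3%, against 15.8% of all features) and 3 overlapped. The remaining 3 were above (42.9%, against 46.3%), among them Alpl (0.80) and Acan (0.46). These markers are named after their values were seen. The 12 muscle markers summed to 74.8 to 75.8 in si-SYISL samples and 59.6 to 64.8 in si-NC samples. Of these 12, 5 were above (41.7%, against 46.3% of all features), 2 below (16.7%, against 15.8%) and 5 overlapped. Their median difference was -0.04. Sums of 6 endothelial markers were 1.17 to 1.22 in si-SYISL samples and 1.02 to 1.1 in si-NC samples, while the median difference of these markers was 0.03. Those of 5 immune markers were 2.1 to 3.16 in si-SYISL samples and 1.68 to 1.72 in si-NC samples, and were mostly Itgam, also named after its values were seen. Sums of 4 adipocyte markers were 0.152 to 0.179 in si-SYISL samples and 0.14 to 0.145 in si-NC samples.

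Of these lists, 8 of 9 fibroblast, 3 of 5 tendon, 6 of 8 chondrocyte and osteoblast, 5 of 6 endothelial, 5 of 5 immune and 3 of 4 adipocyte markers were above background on all arrays, and every marker on the array was so on at least 1. Their part in the collagen values was not tested. In RNA from a whole culture, fewer cells of a type and less RNA per cell cannot be told apart.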

How the data were processed

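The 6 arrays each had a scanner file. The deposited files hold intensity per spot, as the processed signal that Feature Extraction had already background-subtracted, with the median pixel intensity of spot and background beside it. Per the file headers, they also hold flags of 0 or 1 (unit other) that mark outlier spots, saturated spots and spots well above background. The software version is 11.0.1.1 per the file headers and 10.5.1.1 per the submitters' processing notes. The deposited series matrix, whose columns share a median of 8.58, was taken as log2 values normalised by the authors and used as an alternative only.

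The 75th percentile of an array's 43020 non-control spots was taken off its log2 processed signals, outlier spots were left out and each probe was the mean of its spots. Names came from the RefSeq accessions and a gene table of GRCm38.p6, which paired 27234 of 39429 probes. A gene was its measured probe with the highest mean, and the 9920 unnamed probes stood for themselves beside 18633 named genes. The chi-square per probe over 399 replicated probes was 0.219 and 0.26 between replicates 1 and 3 of a group and at least 25 (up to 166.4) in the 13 remaining array pairs, so replicates 1 and 3 were averaged. The same slide position is given for both in the file headers.

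The 2 groups were tested in limma 3.58.1, by two-sided lmFit and eBayes, in R 4.3.3, with the data.table package (version 1.17.8). Sequences and figures used Python 3.11.15, pandas 2.3.3, numpy 2.4.6 and matplotlib 3.10.9. The fit was tested on simulated data. The array number limits the precision. Values were given on every array for the 14 collagen genes with the smallest p, for Col1a1, Col1a2, Col3a1, Col4a1, Col4a2, Col5a1, Col6a1, Col6a2 and Col6a3, and for genes above background in 1 group only. From each other list the 3 genes with the smallest p were taken, with Serpinh1, P4ha1, Lox, Itgb1, Mmp2, Mmp14 and Sparc. The members and lists were chosen with earlier results of these data known.

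Alternatives were quantile and median centring, normexp with offset 50 on median pixel intensities, the deposited matrix, all probes unfiltered, detection on all 6 arrays, the mean of probes and every probe, a variance trend with robust estimation, blocks on replicate number and scan, 1 scan only, each sample left out, and 6 arrays as 6 samples.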

Additional observations from a re-analysis of the deposited data

How the results depend on the processing

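With 2 samples per group no adjusted p passed 0.05, so calls depend on how the spread is estimated. Over all features 183 were called with normexp background, 904 with a variance trend and robust estimation, 83 with the scan as a block, 9762 with 6 arrays as 6 samples, and 0 to 1381 when 1 sample was left out, the highest without si-NC replicates 1 and 3. Without si-NC replicate 2 it was 276. Collagen genes called were 2 with the variance trend, Col1a1 (adjusted p = 0.0299 in limma) and Col4a5 (adjusted p = 0.0349). In the main limma fit their adjusted p was 0.135 and 0.127. With 6 arrays as samples, which counts replicates 1 and 3 separately, 10 were called, Col1a1 at 0.00334 and Col4a5 at 0.00373. In the other settings 0 were called. The collagen median was -0.02 with quantile normalisation, 0.04 with normexp, 0.04 with the filter on all 6 arrays, 0.05 with the mean of probes, and 0.01 to 0.09 with a sample left out. Collagen genes with groups apart numbered 13 higher after median centring, where 33.9% of all features were higher. They numbered 7 lower with quantile normalisation and 7 with the deposited matrix, where 24.1% and 23.8% of all features were lower. With a sample left out they were 23 to 29 higher and 3 to 7 lower, as 53.4% to 63.1% and 20.4% to 26.2% of all features were, where 1 group is a lone sample that the fit assumed to vary like the others. Without si-SYISL replicates 1 and 3 the lower count was 5.

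Counts for the lists leave out the settings with a lone sample in 1 group, which also gave some calls. Of 37 processing genes 2 were called with the variance trend and 15 with 6 arrays, where 3.17% and 34.2% of all features were. Of 10 receptors 1 was called with normexp, 2 with the variance trend, 1 with the scan block and 6 with 6 arrays. For normexp and the scan block the shares of all features were 0.641% and 0.291%. With the variance trend and 6 arrays, 1 and 7 of 17 breakdown genes and 6 and 12 of 31 matrix genes were called. Of 24 transcription factors 10 were called with 6 arrays. The sign of a named collagen gene turned in 7 of 389 recomputed values. Col1a2 was at 0.06 and Col5a1 at 0.02 with normexp, Col6a6 at 0.01 in the scan of replicates 1 and 2, at 0.27 without si-NC replicates 1 and 3 and at 0.16 without si-SYISL replicates 1 and 3. Col3a1 was at 0.10 without si-NC replicates 1 and 3, and Col6a2 at -0.12 without si-SYISL replicates 1 and 3. The cause of these shifts was not tested. Deviations of same-numbered samples correlated at -0.03. With 2 samples per group this is 1 value, which cannot say whether same-numbered samples were prepared together. With the replicate block 0 features were called and the collagen median was 0.01. Signal over background limits the dim chains, Col6a5 and Col6a6 above all.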
